A study of Mus musculus with 4 samples.

Results

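The genes described here encode the proteasome, the barrel-shaped protease that degrades ubiquitin-tagged proteins, together with its caps, activators and assembly factors. They were taken by symbol, as every entry of the deposited table that starts with Psma, Psmb, Psmc, Psmd, Psme, Psmf or Psmg followed by a digit. The rule uses no measured value, but the set was chosen with earlier results of these data known. The rule found 50 of the 19088 genes in the table. These were 14 constitutive subunits of the 20S core, the 3 immunoproteasome subunits, 17 subunits of the 19S regulatory particle, 7 assembly chaperones, 6 activator or inhibitor genes and the thymus-specific subunit Psmb11. The remaining 2, Psmc3ip and Psme3ip1, share the symbol but are not subunits: the first acts in meiotic recombination and the second encodes a binding partner of the Psme3 product.

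RNA came from group 2 innate lymphoid cells (ILC2s, tissue lymphocytes that secrete type 2 cytokines) of epididymal fat from 8-week-old male C57BL/6 mice. There were 2 WT libraries of genotype R5/+ and 2 KO libraries of genotype R5/+Stk11f/f, so that the R5 allele was shared by both groups and the floxed Stk11 alleles were carried by the KO mice alone. Stk11 encodes the kinase LKB1, and the title names LKB1 control of adipose ILC2 function as the question. The labels do not say what R5 drives, whether deletion was checked, or whether the libraries of a group came from separate animals, so p-values measure the spread between these libraries, which may be technical.

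The targeted gene, Stk11, read 43.1 and 39.1 FPKM in WT against 31.9 and 16.6 FPKM in KO, lower in both KO libraries but not past the threshold (limma, adjusted p = 0.548). Values per gene do not separate the floxed exons from the others. FPKM counts sequenced fragments corrected for transcript length and for sequencing depth. It totalled 939623 to 1069515 per library, and the depth in reads is unknown. All 12 ILC2 markers examined were above 50 FPKM in every library, the lowest being Il13 at 51.8 to 75.1 FPKM. All 5 neutrophil genes and 4 of 8 macrophage genes were under 1 FPKM in every library, with Ly6g and Csf1r listed at 0, and the macrophage genes summed to between 0.69 and 13.5 FPKM. The 4 B cell genes summed to 5.75 and 0.19 FPKM (WT) against 20.3 and 10.4 FPKM (KO), and the adipocyte genes to 4.92 to 139 FPKM, the highest being WT replicate 1. Of the T cell genes, Cd3g stood at 189 to 267 FPKM and Cd3d at 0.40 to 1.14 FPKM. The 9 mast cell markers in the table summed to 15940 and 13323 FPKM in WT and to 24943 and 39127 FPKM in KO, each of the 9 was higher in both KO libraries, and 2 (Tpsb2 and Mcpt4) passed the test, a call lost when any library was left out. The 5 red blood cell genes took 5.40% and 7.87% of all FPKM in WT and 7.18% and 2.83% in KO.

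As background, the 20S core is a stack of rings, with Psma genes encoding the outer alpha rings and Psmb genes the inner beta rings that hold the proteolytic sites. The 19S particle caps the core, recognises ubiquitin chains, unfolds the substrate with a ring of Psmc ATPases and feeds it in. In lymphocytes and under interferon the catalytic subunits Psmb5, Psmb6 and Psmb7 are replaced by Psmb8, Psmb9 and Psmb10, which form the immunoproteasome and favour peptides for MHC class I. The activators encoded by Psme1 and Psme2 form a ring that caps the core without ATP. The transcription factor Nfe2l1 raises proteasome genes through antioxidant response elements when proteasome activity falls.

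Promoter windows from RefSeq (GRCm38.p6, 250 bases before to 50 after a transcript's annotated start) are shown for the catalytic genes whose exchange makes the immunoproteasome and for the activator gene Psme1, since the WT and KO levels of these genes are compared below. Psmb7 is not shown. The strand of the gene is printed from 5′ to 3′, and capitals mark a match to an antioxidant response element core (TGACNNNGC or TGAGNNNGC, which bind Nfe2l1 and Nfe2l2), to an interferon-stimulated response element core (GAAA, any 2 bases, then GAAA) or to the CCAAT box of NF-Y, each searched on both strands. Psmb5 lies at chr14:54617946-54618245 on the minus strand, Psmb8 at chr17:34197945-34198244 on the plus strand, Psmb6 at chr11:70525107-70525406 on the plus strand, Psmb9 at chr17:34187281-34187580 on the minus strand, Psmb10 at chr8:105938343-105938642 on the minus strand and Psme1 at chr14:55578244-55578543 on the plus strand.
Psmb5: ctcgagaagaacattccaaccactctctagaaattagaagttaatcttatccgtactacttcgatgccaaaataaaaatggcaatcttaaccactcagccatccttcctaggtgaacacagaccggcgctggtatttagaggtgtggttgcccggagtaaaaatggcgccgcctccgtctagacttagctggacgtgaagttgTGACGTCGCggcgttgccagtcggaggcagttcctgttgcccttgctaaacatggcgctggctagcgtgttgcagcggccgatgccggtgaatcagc
Psmb8: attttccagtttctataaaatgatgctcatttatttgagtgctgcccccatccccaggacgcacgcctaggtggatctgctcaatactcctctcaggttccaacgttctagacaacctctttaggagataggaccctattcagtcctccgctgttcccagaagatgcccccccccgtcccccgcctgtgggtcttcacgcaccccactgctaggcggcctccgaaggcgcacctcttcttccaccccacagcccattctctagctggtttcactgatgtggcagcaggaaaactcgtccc
Psmb6: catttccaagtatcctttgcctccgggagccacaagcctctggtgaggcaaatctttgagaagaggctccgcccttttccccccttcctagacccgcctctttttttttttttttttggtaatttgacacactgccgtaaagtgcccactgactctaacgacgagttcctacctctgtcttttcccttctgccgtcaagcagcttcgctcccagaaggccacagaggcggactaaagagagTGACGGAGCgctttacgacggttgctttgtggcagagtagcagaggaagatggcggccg
Psmb9: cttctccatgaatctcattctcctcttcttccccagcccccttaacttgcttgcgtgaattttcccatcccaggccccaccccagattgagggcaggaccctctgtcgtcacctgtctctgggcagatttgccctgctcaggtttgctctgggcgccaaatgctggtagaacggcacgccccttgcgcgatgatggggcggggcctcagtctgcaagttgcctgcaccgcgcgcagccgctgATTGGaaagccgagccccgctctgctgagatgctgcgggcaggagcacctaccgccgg
Psmb10: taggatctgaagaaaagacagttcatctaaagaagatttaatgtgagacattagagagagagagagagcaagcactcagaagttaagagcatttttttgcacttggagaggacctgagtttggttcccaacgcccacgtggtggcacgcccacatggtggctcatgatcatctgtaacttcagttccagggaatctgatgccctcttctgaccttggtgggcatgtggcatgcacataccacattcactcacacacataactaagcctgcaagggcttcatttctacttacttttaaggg
Psme1: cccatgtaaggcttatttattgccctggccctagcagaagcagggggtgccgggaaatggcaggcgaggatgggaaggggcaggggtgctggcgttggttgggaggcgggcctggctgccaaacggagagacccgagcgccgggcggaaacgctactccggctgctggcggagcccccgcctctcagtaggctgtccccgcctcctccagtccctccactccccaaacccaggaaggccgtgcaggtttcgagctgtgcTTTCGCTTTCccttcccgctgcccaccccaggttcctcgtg
No window shown held more than 1 match, so no matches overlap in them.

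The constitutive genes Psmb5 and Psmb6 each held an antioxidant response element core, at positions -47 and -9 from the start used by the window. For Psmb6 that start (chromosome 11, 70525357) lies 33 bases inside the gene's outermost annotated start, so its match lies within the annotated gene. For the other 5 windows both starts are the same base. Psmb8 and Psmb10 held none of the searched motifs, and Psmb9 held a CCAAT box on its other strand. The Psmb9 window overlaps that of its divergent neighbour Tap1, a peptide transporter gene, by 275 bases. Psme1 held the interferon-stimulated core on the other strand, from position 10 after the start. Over the 43 members with a window, 17 (39.5%) held an antioxidant response element core, against 30.8% of 27025 genes with windows of the same length, counting a match in any window of a gene. By class these were 7 of 11 genes of the 20S core and 5 of 14 of the 19S particle. The interferon-stimulated core was found in 5 of 43 members (11.6%; Psmb3, Psmd4, Psmd9, Psme1 and Psmg4), against 3.99% of all genes. The CCAAT box was found in 16 of 43 (37.2%), against 41.1% of all genes. A match describes letters in the window and does not show binding.

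Of the 50 members, 49 passed the filter of a mean of at least 1 FPKM. The exception was Psmb11, at 0.09 and 0.04 FPKM (WT) against 0.10 and 0.08 FPKM (KO). Psmb11 encodes the catalytic subunit of thymic cortical epithelium. The other members ranged from a mean of 6.16 FPKM for Psmc3ip to 781 FPKM for Psmb3. The plot of every gene in each library shows 2 tiers, with 20S core genes above most genes of the 19S particle.

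**Figure D1:**
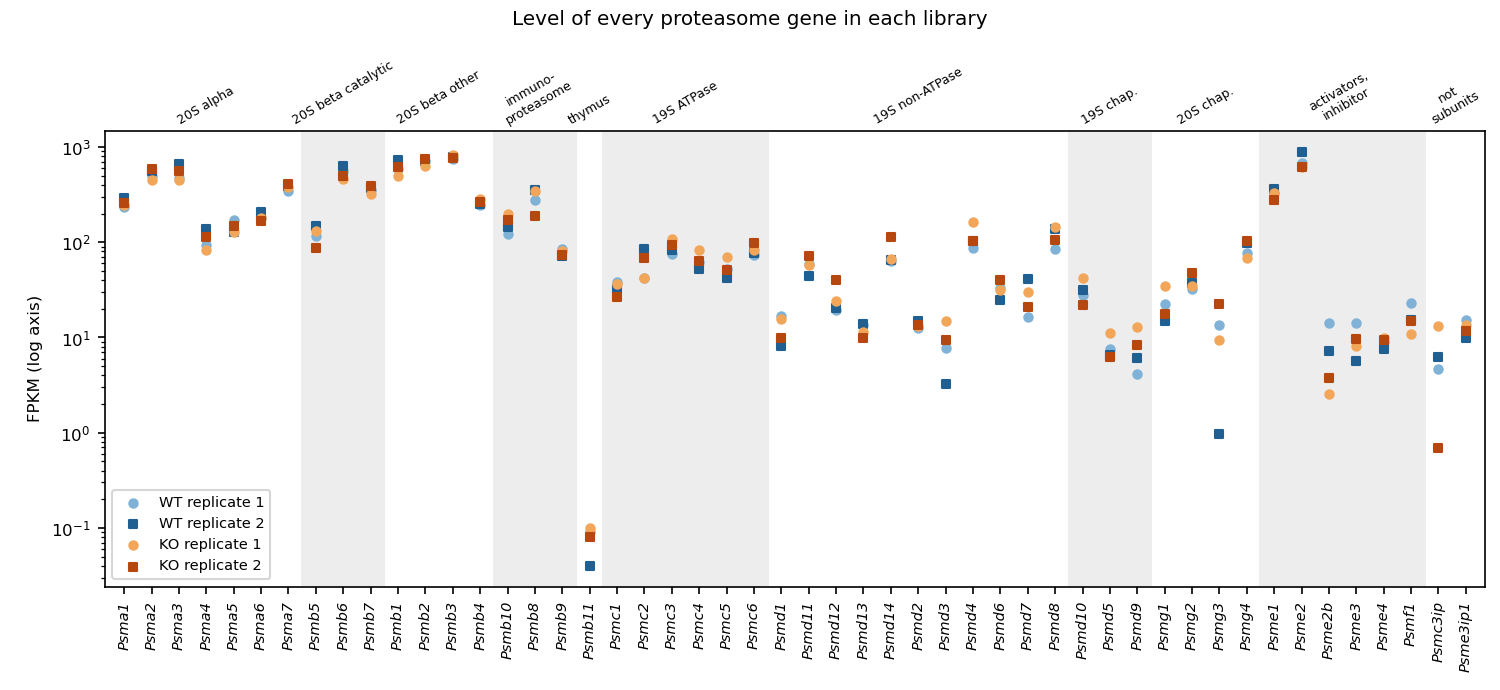
FPKM (log axis) of all 50 proteasome genes, grouped by class along the x axis, with a point for each of the 2 WT and 2 KO libraries. The 20S core genes lie near or above 100 FPKM, most 19S genes lie below, and the points of the 4 libraries overlap for most genes.

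The 14 constitutive 20S core genes had median levels of 347 and 377 FPKM (WT) against 350 and 402 FPKM (KO). The 17 subunit genes of the 19S particle with a Psm symbol had medians of 42.0 and 41.7 FPKM (WT) against 41.8 and 50.6 FPKM (KO). The core median was therefore 7.94 to 9.03 times that of these 17 genes in every library. All 14 core genes lay above the highest of the 17 in WT replicate 1, 12 did in WT replicate 2 and KO replicate 2, and 11 did in KO replicate 1. The 19S components Sem1 and Adrm1 have no Psm symbol and are not among the 17. Sem1 stood at 1032 and 1159 FPKM (WT) against 956 and 1055 FPKM (KO), above every core gene. Levels of genes whose products enter the core in equal copies still differed, the highest core gene being 6.14 to 9.79 times the lowest within a library. Across the 49 tested members, level and transcript length had a Spearman rho of -0.07, given as a description over genes.

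Between KO and WT, no proteasome gene was called: 0 of 49 passed in either direction (limma over 9818 genes, lowest adjusted p = 0.420). Of all genes tested, 0.163% were called higher in KO and 0.0509% lower. At an unadjusted p under 0.05 there was 1 member, the retrogene Psme2b, against 9.18% of all genes. Both KO libraries lay above both WT libraries for 10 of 49 members (20.4%, against 18.5% of all genes), and below them for 7 (14.3%, against 20.6%). For the other 32 the groups overlapped. The median log2 fold change of the 49 was -0.02, beside -0.01 for all genes tested, with 24 members positive and 25 negative. The median 95% interval of a member, unadjusted for the number of genes, reached 0.67 to each side of its log2 fold change. Differences within that size were not detectable for a typical member, and larger ones could also miss the adjusted threshold. Psme2b, at -1.45, had an adjusted p of 0.420 (limma).

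**Figure D2:**
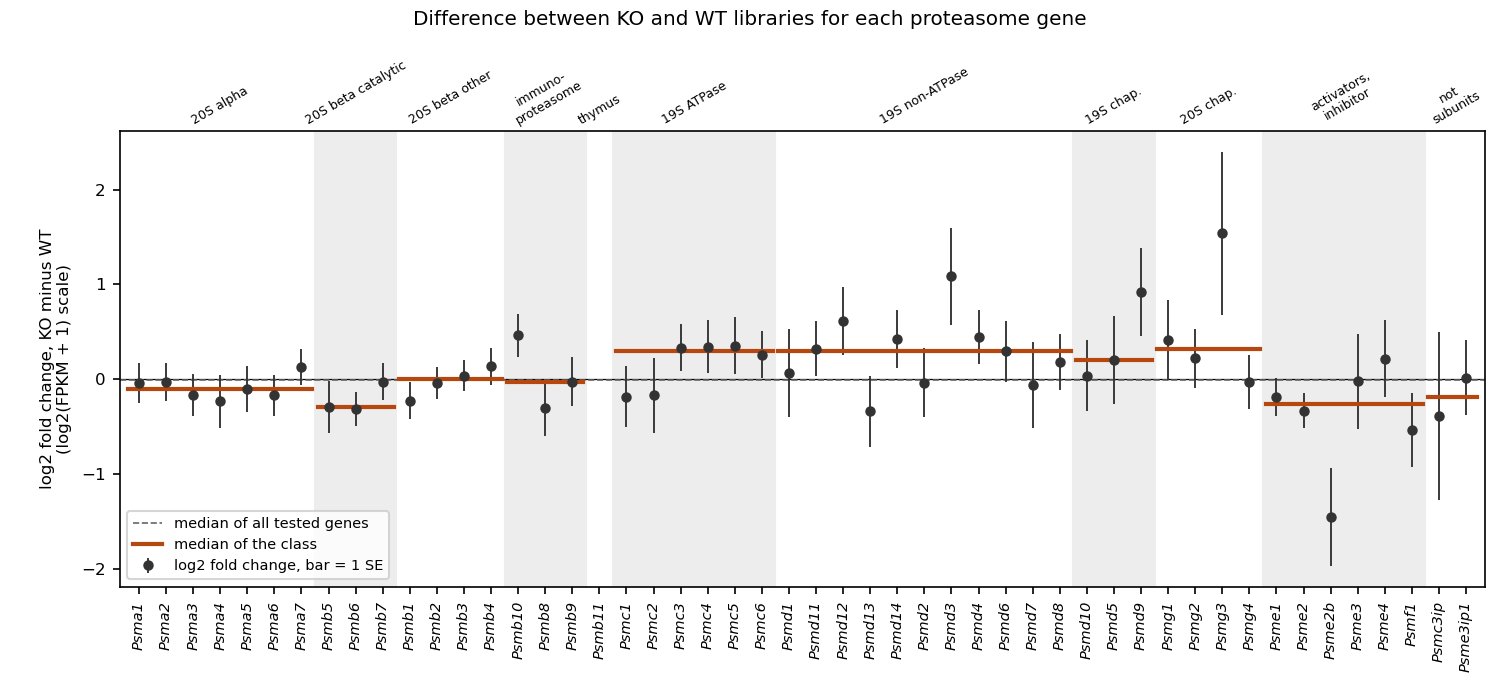
Log2 fold change of KO minus WT on the log2(FPKM + 1) scale for each of the 49 tested proteasome genes, with bars of 1 SE, orange lines at the class medians and a dashed line at the median of all tested genes. The 20S alpha and catalytic beta medians lie below 0, and the median of the other beta genes lies at about 0. With TPM scaling the alpha median was 0.02, beside 0.09 for all genes tested, while Psmb5 and Psmb6 stayed below 0, at -0.17 and -0.19. The activator median lies below 0 and the 19S medians near 0.30, while the bars of most single genes reach or approach 0.

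No alpha ring gene of the 20S core passed the test. Of the 7, 6 had a negative log2 fold change and 1 a positive one, beside 5000 negative of 9818 genes tested. Psma2 stood at 490.9 and 562.9 FPKM (WT) against 451.4 and 590.5 FPKM (KO). Psma3 stood at 477.6 and 670.3 FPKM (WT) against 453.5 and 562.7 FPKM (KO). In both genes replicate 2 was the higher library of its group and the groups overlapped. Psma4, the lowest of the 7 alpha genes, was at 94.7 and 136.7 FPKM (WT) against 83.3 and 112.1 FPKM (KO). Psma6 was the alpha gene without overlap, at 180.4 and 209.8 FPKM (WT) against 178.0 and 167.8 FPKM (KO), with log2 fold change -0.17 (SE 0.21; limma's adjusted p = 0.862). Of all genes, 20.6% had both KO libraries lower. The other alpha genes, Psma1, Psma5 and Psma7, had overlapping groups and means of 138 to 398 FPKM in either group. Over the 7 genes the median log2 fold change was -0.10, and the median 95% interval reached 0.49 to each side.

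Among the beta genes, Psmb3 had the highest mean of all members, although Psme2 was above it in WT replicate 2. Psmb3 stood at 748.4 and 792.1 FPKM (WT) against 815.0 and 766.9 FPKM (KO). Psmb2 followed at 718.1 and 704.8 FPKM (WT) against 635.5 and 753.9 FPKM (KO). Psmb1 was at 583.1 and 725.2 FPKM (WT) against 498.7 and 619.4 FPKM (KO). These 3 genes encode non-catalytic beta subunits and showed overlapping groups. Psmb4, also non-catalytic, stood at 243.5 and 254.7 FPKM (WT) against 283.1 and 264.6 FPKM (KO), with both KO libraries higher (log2 fold change 0.14, SE 0.20; limma, adjusted p = 0.887).

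The constitutive catalytic genes differed from each other more than between groups. Psmb5, which encodes the chymotrypsin-like subunit (chromosome 14 from 54614120 to 54617995), stood at 116.5 and 149.6 FPKM (WT) against 131.0 and 87.9 FPKM (KO). Psmb7, the trypsin-like subunit gene (chromosome 2 from 38588046 to 38643952), stood at 351.4 and 367.4 FPKM (WT) against 318.8 and 390.1 FPKM (KO). Psmb6, the caspase-like subunit gene (chromosome 11 from 70525324 to 70527858), was the catalytic gene with both KO libraries lower (20.6% of all genes), at 555.7 and 636.3 FPKM (WT) against 463.4 and 494.5 FPKM (KO). Its log2 fold change was -0.31 (SE 0.18; 95% interval -0.72 to 0.09) and was not past the threshold (limma, adjusted p = 0.632). For Psmb5 and Psmb7 the groups overlapped, with log2 fold changes of -0.30 (SE 0.28) and -0.03 (SE 0.20). The Psmb5 value was -0.58 without KO replicate 1, -0.01 without KO replicate 2, -0.48 without WT replicate 1 and -0.12 without WT replicate 2. Over the 14 core genes, 11 were negative with a median log2 fold change of -0.07, which turned to 0.05 with TPM scaling (each library rescaled to a common FPKM total) and to 0.03 with scaling without the 20 highest genes. TPM scaling moved the median of all genes by 0.11, to 0.09, so the core median stayed below it. Without WT replicate 2 the core median was 0.02 against -0.08 for all genes, and without KO replicate 1 it was -0.01 against -0.05, so in both cases it lay above that of all genes.

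Immunoproteasome genes were present in every library, and none passed the test. Psmb8 (chromosome 17 from 34198195 to 34201454), the counterpart of Psmb5, stood at 279.2 and 355.8 FPKM (WT) against 343.6 and 188.5 FPKM (KO). KO replicate 2 was the lowest library and KO replicate 1 lay between the WT libraries; the log2 fold change of -0.31 (SE 0.29) became 0.12 without KO replicate 2. Psmb9 (chromosome 17 from 34182030 to 34187330), the counterpart of Psmb6, stood at 85.4 and 72.0 FPKM (WT) against 81.1 and 73.3 FPKM (KO), with overlapping groups. Psmb10 (chromosome 8 from 105935728 to 105938392), the counterpart of Psmb7, stood at 121.0 and 145.8 FPKM (WT) against 195.9 and 171.7 FPKM (KO). Both KO libraries were higher, with a log2 fold change of 0.46 (SE 0.23; 95% interval -0.06 to 0.98) not past the threshold (limma, adjusted p = 0.568). Psmb10 averaged 133 ± 17.5 FPKM in the WT group against 184 ± 17.1 FPKM in the KO group (SD, n = 2 each).

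Ratios within a library do not depend on the library's total, and they ranked the 3 catalytic pairs alike in all 4 libraries. The Psmb8 level was 2.40 and 2.38 times that of Psmb5 in WT and 2.62 and 2.14 times in KO, so the immunoproteasome gene of this pair was the higher in every library. In KO replicate 2, where Psmb8 was lowest, Psmb5 was lowest too. The Psmb9 level was 0.154 and 0.113 times that of Psmb6 in WT and 0.175 and 0.148 times in KO. The Psmb10 level was 0.344 and 0.397 times that of Psmb7 in WT and 0.615 and 0.440 times in KO, the KO libraries both being higher. As log2 ratios, the differences of KO minus WT were -0.01, 0.29 and 0.49 for the Psmb8, Psmb9 and Psmb10 pairs. The exact two-sided permutation p-values were 1, 0.667 and 0.333, where 0.333 is the smallest that 2 libraries against 2 allow. The permutation test was also run on the ratios of Psme1 to Psme2 and of Psmb8 to Psmb9, with p = 0.667 for each. Without KO replicate 1 the Psmb10 difference was 0.25, and without KO replicate 2 it was 0.73. The Psmb9 difference was 0.51 without WT replicate 1, 0.07 without WT replicate 2 and 0.17 without KO replicate 1.

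**Figure D3:**
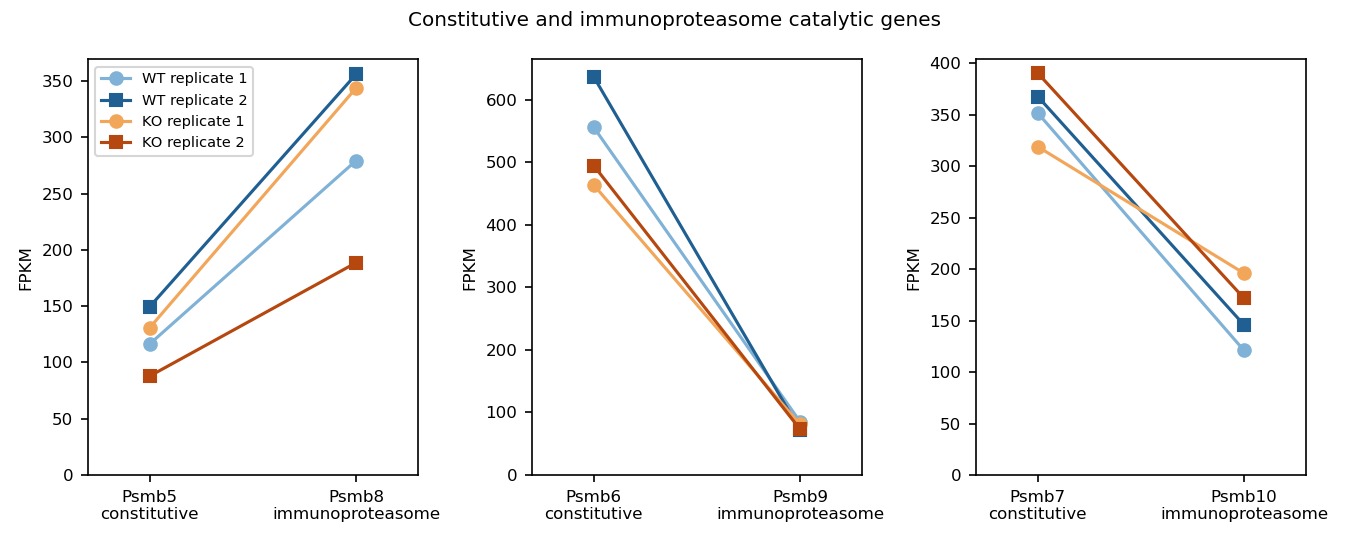
FPKM (linear axes from 0) of each constitutive catalytic gene and its immunoproteasome counterpart, with a line for each of the 4 libraries. Psmb8 lies above Psmb5 in all 4 libraries, Psmb9 and Psmb10 lie below Psmb6 and Psmb7 in all 4, and the KO lines end highest for Psmb10.

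The 19S particle was the class with the most positive differences among subunits, though no gene of it passed the test. Of its 17 genes with a Psm symbol, 12 had a positive log2 fold change, against 3 of 14 in the 20S core and 4818 of 9818 genes tested. Its median was 0.30, against -0.07 in the core and -0.01 over all genes tested. Outside the subunits, 6 of 7 assembly chaperone genes were also positive, with a median of 0.22. Without KO replicate 1 the 19S median was 0.15, and without KO replicate 2 it was 0.19. Summed over the 17 genes, 19S FPKM came to 14.3% and 14.1% of that of the 20S core in WT and to 19.6% and 16.6% in KO, so the groups did not overlap. Sem1 and Adrm1 are not in these sums, and each had a log2 fold change of -0.12. The 17 genes summed to 757 and 851 FPKM (WT) against 994 and 935 FPKM (KO). Sem1 alone stood at 1032 and 1159 FPKM (WT) against 956 and 1055 FPKM (KO), so these shares depend on the symbol rule. As a share of all FPKM the sum of the 17 genes was 0.0768% and 0.0795% in WT and 0.106% and 0.0992% in KO. The sums are given as a description, without a test. The mast cell and B cell marker sums given above were also higher in both KO libraries, and their part in this difference was not tested. In sorted bulk RNA, fewer cells of a type and less RNA per cell cannot be told apart.

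**Figure D4:**
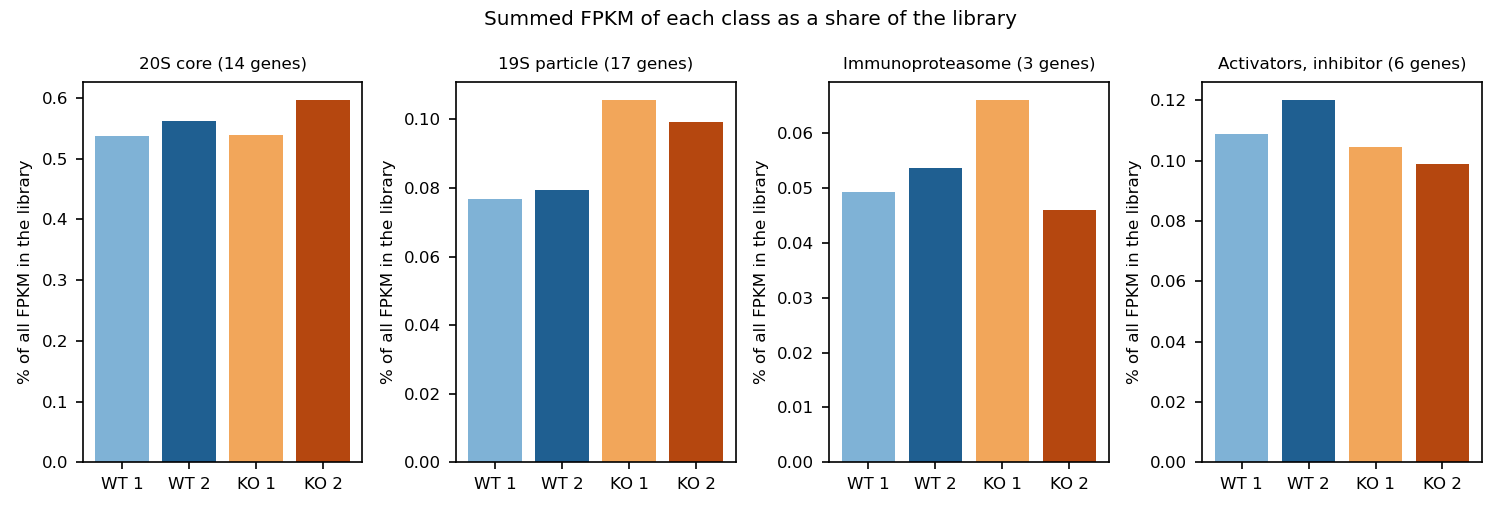
Summed FPKM of 4 classes of proteasome genes as a percentage of all FPKM, with a bar (from 0) for each library. The 19S bars (17 genes with a Psm symbol) are 0.0768% and 0.0795% in WT and 0.106% and 0.0992% in KO. The activator bars are lower in both KO libraries, and the 20S and immunoproteasome bars overlap between groups.

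Among the ATPases that unfold substrates, Psmc3 stood at 75.3 and 83.8 FPKM (WT) against 107.7 and 93.2 FPKM (KO). Psmc4 stood at 61.4 and 52.9 FPKM (WT) against 83.1 and 63.4 FPKM (KO). Psmc6 stood at 73.3 and 77.6 FPKM (WT) against 82.5 and 99.2 FPKM (KO). In these 3 of the 6 ATPase genes both KO libraries were above both WT libraries (18.5% of all genes), with log2 fold changes of 0.33 (SE 0.25), 0.34 (SE 0.28) and 0.26 (SE 0.25; limma, adjusted p of 0.735 to 0.813). Psmc1, Psmc2 and Psmc5 had overlapping groups, and Psmc2 varied the most within a group, at 42.0 and 85.3 FPKM (WT) against 41.8 and 67.5 FPKM (KO).

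Of the 11 non-ATPase genes, 3 had both KO libraries higher and 1 had both lower, beside 18.5% and 20.6% of all genes. Psmd3, which encodes a lid subunit, was at 7.68 and 3.24 FPKM (WT) against 15.04 and 9.33 FPKM (KO), with log2 fold change 1.09 (SE 0.51; limma's adjusted p = 0.555). Psmd12, another lid subunit gene, was at 19.6 and 20.2 FPKM (WT) against 24.0 and 39.8 FPKM (KO) (log2 fold change 0.61, SE 0.36; adjusted p = 0.644). Psmd14, which encodes the deubiquitinase of the lid, was at 64.2 and 65.7 FPKM (WT) against 67.3 and 113.2 FPKM (KO). For Psmd12 and Psmd14 the higher KO value was replicate 2, and KO replicate 1 was close to the WT libraries. Psmd13 was the gene with both KO libraries lower, at 13.4 and 13.9 FPKM (WT) against 11.3 and 9.87 FPKM (KO). The gene of the ubiquitin receptor Psmd4 stood at 86.3 and 103.6 FPKM (WT) against 162.5 and 102.0 FPKM (KO), so that KO replicate 1 was set apart and the groups overlapped. Psmd8, of the lid, stood at 85.9 and 136.9 FPKM (WT) against 143.9 and 105.8 FPKM (KO). The others, Psmd1, Psmd2, Psmd6, Psmd7 and Psmd11, had overlapping groups and means of 12.5 to 64.1 FPKM in either group.

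Assembly chaperones build the particles and leave them. Psmd9, a chaperone of the ATPase ring, was at 4.15 and 6.07 FPKM (WT) against 13.0 and 8.34 FPKM (KO), with log2 fold change 0.92 (SE 0.46; limma's adjusted p = 0.575). It was the chaperone gene of the 7 with both KO libraries higher (14.3%, against 18.5% of all genes). Psmg3, which pairs with Psmg4 in building the alpha ring, was at 13.6 and 0.96 FPKM (WT) against 9.37 and 22.3 FPKM (KO). Its log2 fold change of 1.54 had an SE of 0.86, and the WT libraries alone spanned most of its range. Without WT replicate 2 it was 0.09, without WT replicate 1 it was 2.99, and without KO replicate 2 it was 0.96. Psmg4 was steadier, at 77.1 and 97.1 FPKM (WT) against 69.1 and 104.0 FPKM (KO). Psmg2, the partner of Psmg1, was at 32.5 and 37.6 FPKM (WT) against 34.9 and 47.9 FPKM (KO). Psmd5, Psmd10 and Psmg1 overlapped between groups, with means of 7.11 to 31.9 FPKM in either group.

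Of the 6 activator and inhibitor genes, 4 lay lower in both KO libraries, none past the test, with a median log2 fold change of -0.26. The 4 include Psme2 and its near-identical copy Psme2b, whose values depend on how reads were shared between them. By comparison, 20.6% of all genes lay lower in both KO libraries. The median was -0.14 with TPM scaling and -0.16 with scaling without the 20 highest genes. The median of all genes was 0.09 and 0.07 with these scalings, against -0.01 without them. The T cell marker genes also summed lower in KO, at 231 and 269 FPKM (WT) against 194 and 195 FPKM (KO). Nearly all of that sum was Cd3g, at 228.1 and 267.4 FPKM (WT) against 189.4 and 189.3 FPKM (KO). Cd3e was higher in both KO libraries, at 1.53 and 0.24 FPKM (WT) against 1.87 and 4.91 FPKM (KO). The part of these genes in the activator and inhibitor differences was not tested. Psme2 (chromosome 14 from 55587440 to 55591101) stood at 683.0 and 890.7 FPKM (WT) against 621.7 and 616.8 FPKM (KO), with log2 fold change -0.33 (SE 0.19; 95% interval -0.76 to 0.09; limma's adjusted p = 0.628). Its partner Psme1 (chromosome 14 from 55578494 to 55581527) stood at 330.8 and 360.0 FPKM (WT) against 329.7 and 278.1 FPKM (KO), a log2 fold change of -0.19 (SE 0.20). Both KO libraries were lower in both genes, by little in KO replicate 1 for Psme1. The Psme1 level was 0.404 to 0.530 times that of Psme2 across the 4 libraries.

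Psme2b (chromosome 11 from 48945345 to 48946410), which GENCODE tags as a retrogene, was at 14.1 and 7.27 FPKM (WT) against 2.53 and 3.71 FPKM (KO). Its log2 fold change was -1.45 (SE 0.52; 95% interval -2.63 to -0.28; limma, adjusted p = 0.420). The Psme2b transcript matched the Psme2 transcript at 711 of 716 aligned bases (99.3%), so its value depends on how the authors' counting shared reads between the copies and is uncertain. Psme2b was singled out after its values were seen.

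The remaining activators were scarce. Psme3, which encodes a nuclear activator, was at 14.02 and 5.65 FPKM (WT) against 8.06 and 9.68 FPKM (KO), with the KO libraries inside the WT range. Psme4, a large activator gene, was at 8.93 and 7.50 FPKM (WT) against 9.90 and 9.48 FPKM (KO), with both KO libraries higher (log2 fold change 0.22, SE 0.41). Psmf1, which encodes a proteasome inhibitor and regulator, was at 23.0 and 15.3 FPKM (WT) against 10.9 and 14.8 FPKM (KO), with both KO libraries lower (log2 fold change -0.54, SE 0.39; limma, adjusted p = 0.734). The symbol matches that are not subunits had overlapping groups, Psmc3ip at 4.64 and 6.23 FPKM (WT) against 13.1 and 0.69 FPKM (KO), and Psme3ip1 at 15.3 and 9.95 FPKM (WT) against 13.6 and 11.6 FPKM (KO).

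Proteasome partners without a Psm symbol, a list that includes Sem1 and Adrm1, gave the same count. Of 18 tested, 0 passed in either direction (limma). In both KO libraries 1 lay above and 4 below the WT libraries (18.5% and 20.6% of all genes). The median log2 fold change of the 18 was -0.12. Zfand5, which stimulates substrate breakdown by the proteasome, had the smallest p, at 195.8 and 204.8 FPKM (WT) against 122.0 and 114.4 FPKM (KO) (log2 fold change -0.76, SE 0.22; adjusted p = 0.284). Usp14, a deubiquitinase docked on the 19S particle, stood at 20.9 and 24.4 FPKM (WT) against 14.2 and 13.4 FPKM (KO) (log2 fold change -0.68, SE 0.34; adjusted p = 0.575). Akirin2, needed for nuclear import of proteasomes, stood at 14.1 and 17.2 FPKM (WT) against 7.07 and 11.8 FPKM (KO). In these 3 genes both KO libraries were lower. The regulator Nfe2l1 was low, at 1.74 and 2.20 FPKM (WT) against 2.81 and 1.85 FPKM (KO), and Nfe2l2 stood at 28.0 and 29.6 FPKM (WT) against 34.4 and 25.4 FPKM (KO), with overlapping groups for both.

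Genes of MHC class I peptide processing, which the immunoproteasome serves, likewise gave 0 of 14 past the test (limma), with 3 above and 2 below in both KO libraries (18.5% and 20.6% of all genes) and a median log2 fold change of -0.06. Calr, a chaperone of class I folding, had the smallest p, at 120.5 and 99.9 FPKM (WT) against 203.5 and 151.1 FPKM (KO) (log2 fold change 0.67, SE 0.25; adjusted p = 0.453). Tap1, which shares its promoter region with Psmb9, stood at 11.0 and 10.2 FPKM (WT) against 7.08 and 2.80 FPKM (KO) (log2 fold change -1.06, SE 0.51; adjusted p = 0.560). The other chain of the peptide transporter, Tap2, stood at 15.4 and 8.34 FPKM (WT) against 23.8 and 18.4 FPKM (KO) (log2 fold change 0.83, SE 0.41; adjusted p = 0.571). Both KO libraries were lower for Tap1 and higher for Tap2. Nlrc5, a transactivator of class I genes named here after its values were seen, stood at 20.8 and 20.4 FPKM (WT) against 16.3 and 7.42 FPKM (KO).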

How the data were processed

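Libraries were made from 2000 to 4000 sorted cells each, per the labels' protocols. The authors deposited 1 table of FPKM values for 19088 genes, per the file headers. The submitters' processing notes name Bowtie2, RSEM, DESeq2 and GRCm38.p6, with no roles or versions. FPKM values depend on the library total and on how reads were shared between near-identical copies, and strand use is not given in the sources used here. No counts are in the table, so no count model was run and no counting interval is given.

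After adding a pseudocount of 1 and taking log2, the deposited FPKM were tested with limma 3.58.1 in R 4.3.3 (trend, robust). A gene needed a library mean of 1 FPKM or more, which left 9818, with Benjamini-Hochberg adjustment over all of them and a threshold of 0.05. Fold changes on this scale understate those of low genes. Errors are SD over 2 libraries or SE of the fit. Ratios were tested with an exact permutation test (scipy 1.17.1). The code was tested on simulated data. Coordinates and promoter windows came from RefSeq on GRCm38.p6, to which 19034 gene IDs matched, and transcript lengths from GENCODE M21 on the same assembly (the median over protein-coding transcripts).

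Members and lists were chosen with earlier results of these data known. Named genes are Stk11, the catalytic, immunoproteasome and activator genes, Psmf1, Nfe2l1 and Nfe2l2, the 2 of smallest p and the 2 of highest level in each other class, and the 3 of smallest p in each of 3 context lists, of which 1 result is not reported here. Other members are given so that each is accounted for. Psme2b, Psmd13, Psmd14 and Nlrc5 were named after their values were seen. Alternatives were another pseudocount, filters, scalings, a transcript length correction, the replicate block and leaving out each library.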

Additional observations from a re-analysis of the deposited data

How the results depend on the processing

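No proteasome gene passed the test under any of the 13 alternatives, and 1 to 3 members had an unadjusted p under 0.05. The whole table gave 21 calls as reported. It gave 0 under quantile normalization, under the replicate block, when low genes were kept, when the pseudocount was 0.1 and when any 1 library was left out. It gave 1 with median-ratio scaling and with the length correction, 20 with the filter of 5 FPKM, 23 with TPM scaling and 24 with scaling without the 20 highest genes. Median log2 fold changes moved as follows, and the cause was not tested. For all members the median was 0.0995 with TPM scaling, 0.0758 without the 20 highest genes, 0.0756 with the length correction and -0.00563 to 0.0941 with each library left out. It was 0.0517 (20S core) and 0.0857 (20S beta) with TPM scaling. With each library left out it ran from -0.212 to 0.0727 (20S alpha), -0.163 to -0.00563 (20S beta) and 0.15 to 0.31 (19S).

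Of 46 genes followed, 14 changed direction under at least 1 alternative and 32 kept it under all. With TPM scaling, where the median of all genes was 0.0928, the log2 fold changes were 0.0980 (Psmb7), 0.0995 (Psmb9), 0.0866 (Psme3), 0.0992 (Psma2), 0.0857 (Psmb2) and 0.0945 (Psmg4). Without the 20 highest genes, where that median was 0.0737, they were 0.0740 (Psmb7), 0.0758 (Psmb9), 0.0664 (Psme3), 0.0752 (Psma2), 0.0616 (Psmb2) and 0.0706 (Psmg4). With the length correction they were 0.0992 (Psmb9), 0.101 (Psme3) and 0.0939 (Psmg4). Quantile normalization gave 0.0264 (Psmb7), 0.0335 (Psma2) and 0.0473 (Psmb2), and median-ratio scaling gave 0.000914 (Psme3). With each library left out, ranges were -0.17 to 0.12 (Psmb7), -0.74 to 0.12 (Psmb8), -0.15 to 0.10 (Psmb9), -0.61 to 0.56 (Psme3), -0.0552 to 0.36 (Nfe2l1) and -0.18 to 0.25 (Nfe2l2). They were -0.50 to 0.0295 (Psma4), -0.41 to 0.0809 (Psma3), -0.22 to 0.17 (Psma2), -0.00563 to 0.0819 (Psmb3), -0.16 to 0.0835 (Psmb2), -0.15 to 0.52 (Psmd8), -0.32 to 0.26 (Psmg4) and -0.000547 to 0.44 (Psmg2).

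The labels do not tie the replicate numbers to a pairing, and deviations of same-numbered libraries had a correlation of 0.03 over 9818 genes. The replicate block called 0 proteasome genes, as the fit without it did. With 2 libraries a group and FPKM without counts, differences below the intervals given could not be detected. Larger ones could also miss the adjusted threshold, since those intervals are not adjusted for the number of genes tested. The share of the spread that comes from depth is unknown.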

Other observations

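Among genes of ubiquitin supply, Ubb and Rps27a lay on different sides of the WT libraries. Ubb, which encodes a chain of ubiquitin repeats, was higher in both KO libraries, at 6429 and 7563 FPKM (WT) against 9303 and 11290 FPKM (KO). Its log2 fold change was 0.56 (SE 0.14; limma, adjusted p = 0.224). Rps27a, which encodes ubiquitin fused to a ribosomal protein, was lower in both KO libraries, at 3078 and 3309 FPKM (WT) against 1941 and 1793 FPKM (KO). Its log2 fold change was -0.77 (SE 0.14; limma, adjusted p = 0.0986). Neither passed the test, nor did any of the 12 tested genes of ubiquitin supply and the p97 segregase, of which 5 were higher and 3 lower in both KO libraries, beside 18.5% and 20.6% of all genes.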
